A study of Mus musculus with 4 samples.

Results

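The melanocyte and melanoblast genes examined here were 10 genes of the pigment cell lineage: Dct, Pmel, Tyr, Tyrp1, Mitf, Sox10, Kit, Mlana, Ednrb and Slc45a2. Every probe set annotated to one of these symbols alone was taken, however dim, which gave 21 of the 45037 non-control probe sets and 10 of the 18193 genes named on the array. Gene expression had been measured on 4 Affymetrix mouse arrays, 1 per RNA sample, with 2 samples of each genotype. The Ezh2cKO group held basal epidermal cells sorted by flow cytometry from the skin of embryos with a conditional knockout of Ezh2, at embryonic day 16. The WT group held basal cells sorted in the same way from wild-type embryos of the same day. Both groups were of a mixed C57 and CD1 background, and which alleles each embryo carried is not given in the sources used here, nor are the Cre driver, the deleted exons and whether embryos were pooled. Ezh2 encodes the methyltransferase of a Polycomb complex that marks histone H3 at silenced genes.

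Melanoblasts are the precursors of melanocytes. They arise from the neural crest, migrate under the skin surface and enter the embryonic epidermis, where they lie among the basal keratinocytes before they colonise hair follicles. Their survival and migration depend on the receptor tyrosine kinase Kit and the endothelin receptor Ednrb, their identity on the transcription factors Sox10 and Mitf, and their pigment on enzymes and structural proteins of the melanosome, the organelle in which melanin is made. The sorted fraction is labelled basal cells, so any melanoblast in it would be a companion cell rather than the cell sorted for.

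Tyr, Tyrp1 and Dct encode the related melanin enzymes tyrosinase, tyrosinase-related protein 1 and dopachrome tautomerase, and their upstream sequences are shown because they share the letters through which the lineage factor Mitf is known to act. The 250 bases before the transcript start are printed 5′ to 3′ on the gene's strand, from RefSeq on build GRCm38.p6. Capitals mark TCATGTG, the core of the motif called the M-box, on either strand. The Tyr window is chr7:87493513-87493762 on the minus strand, the Tyrp1 window chr4:80833963-80834212 on the plus strand, and the Dct window chr14:118052247-118052496 on the minus strand.
Tyr: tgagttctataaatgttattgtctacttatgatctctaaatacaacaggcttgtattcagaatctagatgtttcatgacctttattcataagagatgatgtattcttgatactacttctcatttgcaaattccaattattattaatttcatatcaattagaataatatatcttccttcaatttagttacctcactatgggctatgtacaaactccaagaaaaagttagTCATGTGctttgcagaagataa
Tyrp1: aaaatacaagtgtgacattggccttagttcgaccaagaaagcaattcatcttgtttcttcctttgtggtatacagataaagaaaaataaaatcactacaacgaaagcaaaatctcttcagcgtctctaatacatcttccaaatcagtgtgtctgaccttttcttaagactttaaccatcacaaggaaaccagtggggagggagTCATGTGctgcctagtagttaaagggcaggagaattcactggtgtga
Dct: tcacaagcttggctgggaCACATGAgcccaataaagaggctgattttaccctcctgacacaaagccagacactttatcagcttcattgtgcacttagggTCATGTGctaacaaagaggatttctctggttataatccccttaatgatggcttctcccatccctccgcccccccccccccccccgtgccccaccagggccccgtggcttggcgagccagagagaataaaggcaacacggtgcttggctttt
In Tyr the motif begins 22 bases before the start and in Tyrp1 47 bases before it. Dct holds it at 151 bases on the printed strand and at 232 bases on the other strand. The table held windows for 6 of the 10 genes (9 windows, since Mitf has 3 and Kit 2), and the motif was found in these 3 genes and in none of the windows of Mitf, Kit and Ednrb. On either strand, 3.25% of all 32851 windows of this length held it. Its last 6 letters, CATGTG, which every TCATGTG contains, occurred in the same 3 genes and in 12.3% of all windows, and the related CACGTG in 0 of the 6 genes and in 6.02% of all windows. Such a match is a description of the letters and does not show binding.

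The deposited values are MAS5 signals, in arbitrary units that grow with the amount of a transcript but cannot be compared between probe sets. Median signals over all non-control probe sets were 87.4 and 148 in Ezh2cKO replicates 1 and 2, against 91.6 and 137 in WT replicates 1 and 2, so the arrays numbered 2 read higher at the dim end in both genotypes. The brightest probe set of Ezh2 read 661 and 1308 in the Ezh2cKO arrays, against 3336 and 3603 in the WT arrays. No label states that the replicates came from separate embryos, so the error behind each p-value is that between these 4 samples and could be technical. Xist, the RNA made from the inactive X chromosome of females, read 86.9 in Ezh2cKO replicate 1 and 11333 in Ezh2cKO replicate 2, against 8669 and 10527 in the WT arrays, and the part of this in the differences within number 1 was not tested. The 8 basal keratinocyte markers, among them Krt14 and Trp63, all lay in the upper 60% of probe sets by mean signal (a mean of at least 73.2). Krt14 had both Ezh2cKO arrays above both WT arrays (16592 and 16408, against 15981 and 14501, log2 difference 0.12), where 9.9% of all genes were so placed. The integrin gene Itga6 had them below, where 9.14% of all genes did. It read 6327 and 9411 in Ezh2cKO, against 11908 and 10639 in WT (log2 difference -0.54, at -0.91 within number 1). The groups of its other probe set overlapped (-0.19). The part of Itga6 in the differences within number 1 was not tested. Of the 21 pigment cell probe sets 12 lay in the upper 60%, from 7 of the genes, while every probe set of Tyr, Tyrp1 and Mlana was dimmer. None was at 0, and the lowest signal was 1.08, of the Tyr probe set 1456095_at in Ezh2cKO replicate 2. With no detection calls in use, it is not known whether the dim probe sets read above background.

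None of the 10 genes passed the test between genotypes. In limma's moderated test over all 45037 probe sets, 0 of the 21 member probe sets had an adjusted p under 0.05 (Benjamini-Hochberg), and 0 had an unadjusted p under 0.05. Over all probe sets 0 passed as well (0%), with 329 higher (0.731%) and 175 lower (0.389%) in Ezh2cKO at an unadjusted p under 0.05. By size, 0 members differed 2-fold or more whichever Ezh2cKO array was set against whichever WT array, where 0.0866% of all probe sets were that much higher in Ezh2cKO and 0.0377% that much lower. The adjusted p was 0.999993 for each member, and the lowest unadjusted p was 0.204. An exact two-sided permutation test of 2 against 2 arrays could not go below p = 0.333. Log2 differences between Ezh2cKO and WT, taken on log2(signal + 16), lay between -0.60 and 0.26 with a median of -0.12, beside 0.01 over all probe sets. This scale understates the differences of dim probe sets. The standard errors were 0.25 to 0.66 in log2 units. All 21 confidence intervals included 0. Of these, 17 also reached past a 2-fold difference in at least 1 direction, so a change of that size in that direction lay within the interval. The fit had no term for replicate number, so differences between the numbers count in the error behind these intervals. In sorted bulk cells, fewer cells of a type and less RNA per cell cannot be told apart.

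**Figure D1:**
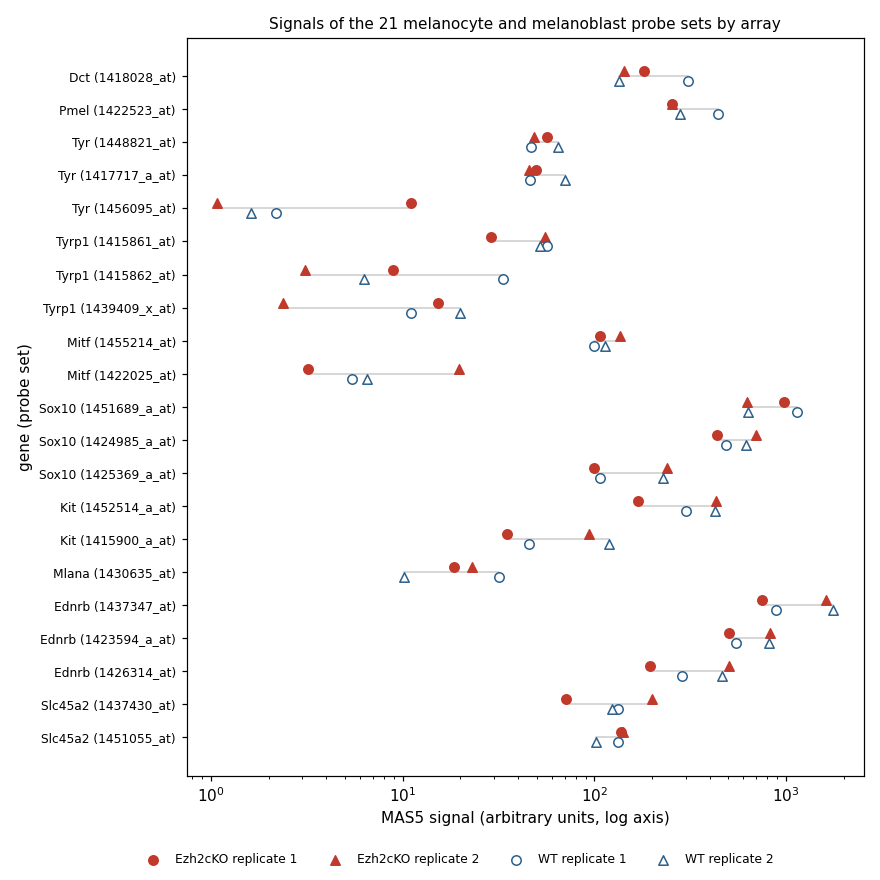
MAS5 signal (arbitrary units, log axis) of each of the 21 melanocyte and melanoblast probe sets on each array, with Ezh2cKO filled and WT open, circles for replicate 1 and triangles for replicate 2, and a grey line over the range. Ezh2cKO and WT points overlap in 19 of the 21 rows, the exceptions being Pmel and Slc45a2 (1451055_at), and in the Kit and Ednrb rows the triangles lie right of the circles in both genotypes.

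Among the melanin enzymes, Dct (probe set 1418028_at) catalyses a middle step of eumelanin synthesis and is one of the earliest markers of melanoblasts. Its signal was 182 and 142 in the Ezh2cKO arrays, against 307 and 135 in the WT arrays (162 ± 28.2 and 221 ± 122, mean ± SD, n = 2 each). The WT arrays bracketed both Ezh2cKO arrays, with WT replicate 1 the highest and WT replicate 2 the lowest of the 4. The log2 difference was -0.32 (SE 0.49, 95% confidence interval -1.51 to 0.87), with -0.71 between the arrays numbered 1 and 0.07 between those numbered 2. Without WT replicate 1 the difference was 0.23, so its sign rested on that array.

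Tyr, the rate-limiting enzyme of melanin synthesis, was dim on all arrays. Probe set 1448821_at read 56.5 and 48.7 in Ezh2cKO, against 46.8 and 64.4 in WT (log2 difference -0.05, SE 0.49). The groups overlapped, the WT arrays bracketing both Ezh2cKO arrays. Probe set 1417717_a_at read 49.7 and 45.8 in Ezh2cKO, against 46.0 and 70.0 in WT (log2 difference -0.20). The third, 1456095_at, read 11.0 and 1.08 in Ezh2cKO, against 2.19 and 1.62 in WT, at the foot of the scale, with the opposite sign (log2 difference 0.26). For Tyr no direction was common to the 3 probe sets, and within number 1 all of them were higher in Ezh2cKO while within number 2 all were lower.

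Tyrp1, which acts beside Tyr and stabilises it, was dim as well. Its brightest probe set 1415861_at read 28.9 and 55.3 in Ezh2cKO, against 56.6 and 51.9 in WT, so that Ezh2cKO replicate 1 stood below the other 3 arrays (log2 difference -0.31, SE 0.50). The dimmer 1415862_at read 8.95 and 3.10 in Ezh2cKO, against 33.3 and 6.26 in WT, with WT replicate 1 above the rest. Its log2 difference of -0.60 (SE 0.42, interval -1.63 to 0.43) was the lowest of the 21. The third, 1439409_x_at, of a design type that can detect other transcripts, read 15.4 and 2.39 in Ezh2cKO, against 11.0 and 19.9 in WT. All 3 Tyrp1 probe sets had negative log2 differences, each with overlapping groups.

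Of the melanosome proteins, Pmel forms the fibrils on which melanin is laid down. Pmel (probe set 1422523_at) read 253 and 253 in the Ezh2cKO arrays, against 441 and 281 in the WT arrays (253 ± 0.014 and 361 ± 113, mean ± SD, n = 2 each). The groups did not overlap, the Ezh2cKO arrays being the lower, and WT replicate 1 stood farthest from them. The log2 difference was -0.45 (SE 0.33, 95% confidence interval -1.26 to 0.35, unadjusted p = 0.216 in limma over all probe sets), with -0.76 within number 1 and -0.14 within number 2. It was -0.14 without WT replicate 1. Pmel was the only member probe set with both Ezh2cKO arrays below both WT arrays, which is 1 of 21 (4.76%), where 8.23% of all probe sets were so placed. With the arrays scaled to a common median the count was 3 of 21, but Pmel was not among them, its groups then overlapping. The share of all probe sets so placed under that scaling was not computed.

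Slc45a2, a transporter of the melanosome membrane that keeps its interior from turning acid, had probe sets that disagreed. Probe set 1451055_at read 138 and 141 in Ezh2cKO, against 133 and 101 in WT, and was the only member with both Ezh2cKO arrays above both WT arrays, where 9.11% of all probe sets were so placed. Its log2 difference was 0.23 (SE 0.43), and this placement was lost under quantile normalization and under scaling to a common median. Probe set 1437430_at read 71.4 and 199 in Ezh2cKO, against 133 and 123 in WT (log2 difference -0.07, SE 0.57). Here the Ezh2cKO arrays were the lowest and the highest of the 4. Mlana, a small melanosome membrane protein also called Melan-A, read 18.5 and 23.1 in Ezh2cKO, against 32.0 and 10.1 in WT (1430635_at). Its WT arrays bracketed the Ezh2cKO arrays (log2 difference 0.05, SE 0.41).

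Mitf is the basic helix-loop-helix factor that switches on most of the pigment genes. Its brightest probe set 1455214_at read 107 and 135 in Ezh2cKO, against 99.1 and 113 in WT, with overlapping groups. The log2 difference was 0.16 (SE 0.45), at 0.10 within number 1 and 0.23 within number 2, and Mitf was the only gene whose brightest probe set was higher in Ezh2cKO within both numbers. The other Mitf probe set, 1422025_at, lay between 3.22 and 19.7 on all arrays.

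Sox10, the neural crest factor that acts upstream of Mitf and is also made by Schwann cells, had 3 probe sets with nearly equal genotype means. Probe set 1451689_a_at read 974 and 626 in Ezh2cKO, against 1145 and 631 in WT (log2 difference -0.12, SE 0.35). Probe set 1424985_a_at read 435 and 700 in Ezh2cKO, against 489 and 620 in WT (log2 difference 0.003, SE 0.30, interval -0.73 to 0.74). Probe set 1425369_a_at read 99.8 and 239 in Ezh2cKO, against 107 and 227 in WT (log2 difference -0.01, SE 0.58). The probe sets went apart between the replicate numbers rather than between the genotypes. The first was lower in both arrays numbered 2 (number 2 minus 1, log2 -0.73) and the third higher in both (1.06). These signs were the same under quantile normalization (-0.74 and 0.55) and under scaling to a common median (-1.39 and 0.46). For the second the sign depended on the scaling, at 0.50 as deposited and -0.15 with a common median. What sets these probe sets of the same gene apart was not tested.

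Kit, the receptor for stem cell factor on melanoblasts and also on mast cells, differed more between numbers than between genotypes in the deposited values. For its brightest probe set 1452514_a_at this depended on the scaling. With a common median the number difference was 0.24 and the genotype difference -0.41. Probe set 1452514_a_at read 169 and 433 in Ezh2cKO, against 303 and 427 in WT (301 ± 187 and 365 ± 87.8, mean ± SD, n = 2 each). Ezh2cKO replicate 1 was the lowest of the 4 and the groups overlapped (log2 difference -0.38, SE 0.48, interval -1.55 to 0.78). The difference was -0.78 within number 1 and 0.02 within number 2, and 0.26 without Ezh2cKO replicate 1. Probe set 1415900_a_at, whose mean lay just under the level of the upper 60%, read 35.2 and 93.3 in Ezh2cKO, against 45.4 and 119 in WT (log2 difference -0.28, SE 0.66).

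Ednrb, the receptor through which endothelin 3 acts on melanoblasts, is also made by glia and by cells of the vessel wall. Probe set 1437347_at read 747 and 1614 in Ezh2cKO, against 885 and 1753 in WT (1181 ± 613 and 1319 ± 613, mean ± SD, n = 2 each). Both arrays numbered 2 were above both numbered 1, and the genotypes overlapped (log2 difference -0.18, SE 0.45, interval -1.29 to 0.93). Probe set 1423594_a_at read 504 and 821 in Ezh2cKO, against 550.3 and 818 in WT (log2 difference -0.06). Probe set 1426314_at read 195 and 503 in Ezh2cKO, against 287 and 465 in WT (log2 difference -0.21). All 3 were lower in Ezh2cKO within number 1, by -0.12 to -0.52 on the log2 scale, and between -0.12 and 0.11 within number 2.

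**Figure D2:**
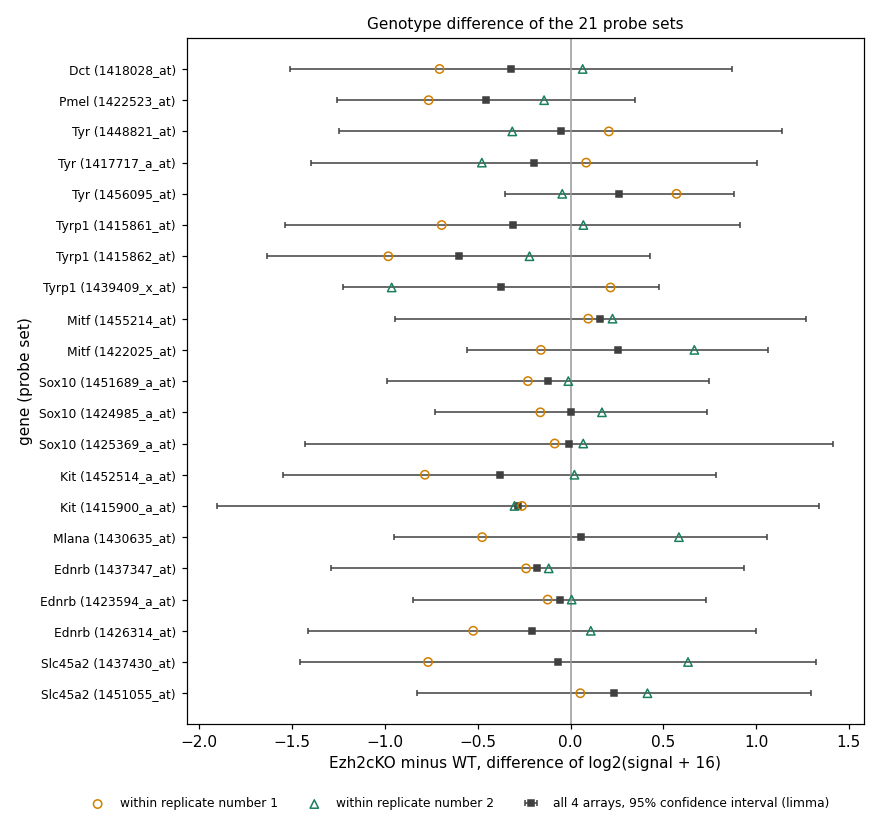
Ezh2cKO minus WT difference of log2(signal + 16) for each of the 21 probe sets, with squares and 95% confidence intervals from limma over all 4 arrays, open circles within replicate number 1 and open triangles within replicate number 2. All 21 intervals include 0, and for 14 probe sets the circle and the triangle lie on opposite sides of 0.

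Within the replicate numbers the members did not keep one direction. The fold counts that follow were taken on signal + 16, which shrinks the folds of dim probe sets, so that dim members such as Tyr 1456095_at and Mlana differ by more on the signals themselves. Between the arrays numbered 1, 15 of the 21 probe sets were lower in Ezh2cKO (71.4%), where 52.3% of all probe sets were, and 6 were at least 1.5-fold lower on signal + 16 (28.6%, against 7.89% of all) while 0 were at least 1.5-fold higher (6.36% of all). Those 6 were the Dct probe set, the Pmel probe set, Tyrp1 1415861_at and 1415862_at, Kit 1452514_a_at and Slc45a2 1437430_at. Between the arrays numbered 2, 9 of 21 were lower (42.9%, against 44.3% of all), 1 was at least 1.5-fold lower on signal + 16 (4.76%, against 4.25%) and 2 were at least 1.5-fold higher on that scale (9.52%, against 8.03%). Only 5 probe sets were lower within both numbers (23.8%, against 22.6% of all) and 2 were higher within both (9.52%, against 26% of all). By the brightest probe set of each gene the median was -0.59 within number 1 and 0.04 within number 2, beside 0.001 and 0.004 over the 18193 genes. Each of these values comes from 1 array per genotype and has no replicate check.

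**Figure D3:**
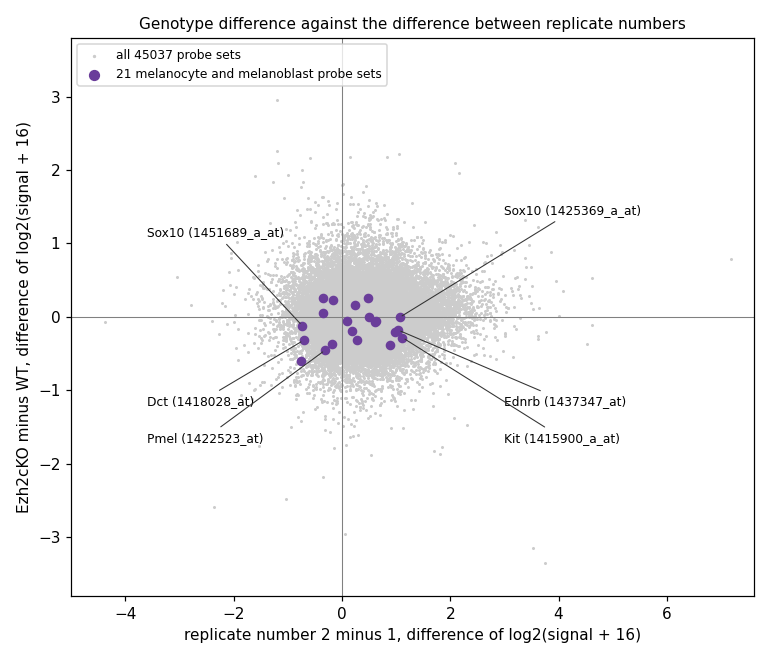
Ezh2cKO minus WT difference (vertical) against the difference between replicate numbers 2 and 1 (horizontal), both of log2(signal + 16), for all 45037 probe sets in grey and the 21 melanocyte and melanoblast probe sets in purple. The purple points span -0.77 to 1.12 across and -0.60 to 0.26 upward, with Dct, 1 Tyrp1 and 1 Sox10 probe set at the left and Kit, Ednrb and another Sox10 probe set at the right.

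In the deposited values, replicate number separated these genes more than genotype did, as it did for the array as a whole. The genotype difference was smaller than the number difference in 16 of the 21 probe sets (76.2%), against 74.8% of all. Both arrays numbered 2 were above both numbered 1 in 9 member probe sets (42.9%, against 46.1% of all) and below them in 4 (19%, against 19.2%). The members above were the 3 Ednrb, 2 Kit and 2 Mitf probe sets and 2 of Sox10, and 1 member, Kit 1415900_a_at, was at least 2-fold higher on signal + 16 in both genotypes (6.69% of all probe sets). Sox10 1425369_a_at fell short of 2-fold on that scale in WT but not on the signals themselves. Those below were Dct, 1 probe set each of Tyr and Tyrp1, and Sox10 1451689_a_at. The median number difference over all probe sets was 0.20 as deposited, -0.04 after quantile normalization and -0.26 with a common median. Dct was at -0.71, -1.15 and -1.33 under these scalings, and the Kit probe set 1452514_a_at at 0.88, 0.62 and 0.24. Ednrb 1437347_at was at 1.03, 1.08 and 0.37. Dct thus lay below the median and these Kit and Ednrb probe sets above it under each scaling.

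Markers of other cells were read on the same arrays, by the brightest probe set of each gene. The endothelial list (9 of 9 on the array) summed to 5450 and 11967 in Ezh2cKO, against 9862 and 11254 in WT, with a median log2 difference of -0.96 within number 1 and 0.09 within number 2. Its defining markers Cdh5, Kdr and Pecam1 read 791, 547 and 409 in Ezh2cKO replicate 1 and between 809 and 2180 on the other arrays. The medians of the endothelial and of the pigment cell genes were thus both lower in Ezh2cKO replicate 1 than in WT replicate 1, and the part of the endothelial difference in the Kit and Ednrb values was not tested. The Schwann cell list (7 of 9 on the array) summed to 7009 and 8230 in Ezh2cKO, against 8304 and 8543 in WT, with medians of -0.20 and 0.07 within the numbers. Mbp, a myelin protein, read 1943 and 2239 in Ezh2cKO, against 2752 and 2204 in WT, and Gfra3, a receptor of Schwann cell precursors, 1020.2 and 1277 against 878 and 1167. The mast cell list (8 of 8) summed to 1721 and 1187 in Ezh2cKO, against 1630 and 1528 in WT. Its 3 members with both Ezh2cKO arrays below both WT arrays were the tryptase gene Tpsb2 (133 and 78.2, against 148 and 153), Mcpt4 and Fcer1a, neither above 20.8 on any array, where 9.14% of all genes were so placed. The brighter Cpa3 (806 and 525 in Ezh2cKO, against 705 and 629 in WT) and Cma1 (507 and 312, against 481 and 423) overlapped and were higher in Ezh2cKO within number 1. No marker of these lists was at 0. The 10 pigment cell genes themselves summed to 2608 and 3531 in Ezh2cKO, against 3449 and 3590 in WT. In such sums the brightest probe sets weigh most, here those of Ednrb and Sox10, genes that other cells also make. The sum is thus no measure of the number of pigment cells. The part of Schwann and mast cells in the Sox10 and Kit values was not tested.

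**Figure D4:**
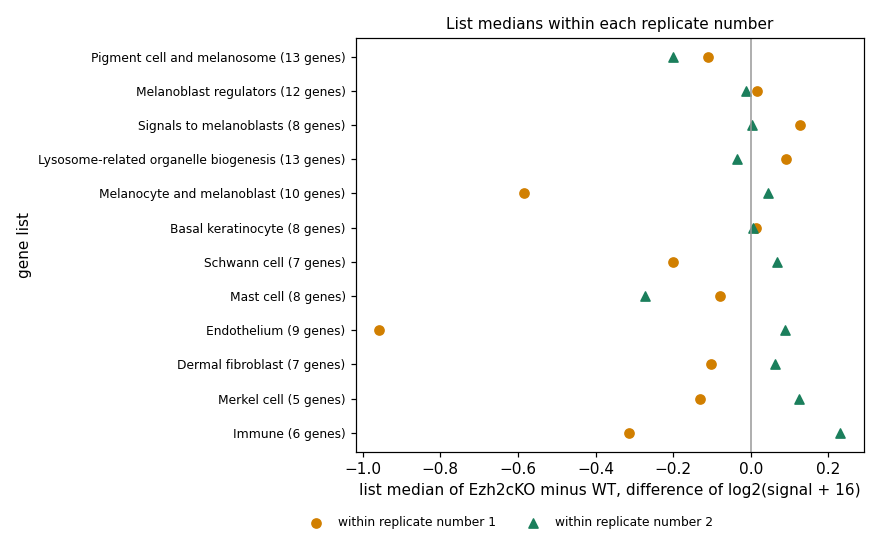
Median Ezh2cKO minus WT difference of log2(signal + 16) of each gene list (Xist, a single gene, is not drawn), from the brightest probe set of each gene, with circles within replicate number 1 and triangles within replicate number 2 (1 array per genotype each). The endothelial list (-0.96) and the melanocyte and melanoblast genes (-0.59) have the lowest medians of the lists drawn within number 1, and neither is below 0 within number 2.

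A further list of pigment cell and melanosome genes held 14 genes, of which 13 were on the array. None passed limma's adjusted threshold, and 0 had an unadjusted p under 0.05. By their brightest probe sets 7 of the 13 had both Ezh2cKO arrays below both WT arrays (53.8%) and 1 had them above, where 9.14% and 9.9% of all 18193 genes were so placed. The list was chosen with earlier results of these data known, so this share is a description and no independent evidence about pigment genes. The 7 were Oca2, Rab27a, Trpm1, Mc1r, Gpnmb, Mreg and Tspan10, and the 1 above was Myo5a. The count below was 4 of 13 after quantile normalization and 2 of 13 with a common median. The shares of all genes under these scalings were not computed. Over all 25 probe sets of the list, as deposited, 7 were below (28%) and 2 above, where 8.23% and 9.11% of all probe sets were so placed. The median log2 difference was -0.21, at -0.11 within number 1 and -0.20 within number 2.

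Mreg, which encodes melanoregulin, a protein of melanosome transfer and transport, read 873 and 834 in Ezh2cKO, against 1156 and 1115 in WT. In the deposited values its 4 arrays were close within each genotype and apart between them (log2 difference -0.41, SE 0.18, unadjusted p = 0.0615 in limma over all probe sets). With the arrays scaled to a common median its groups overlapped. Rab27a, the small GTPase that tethers melanosomes to the cell's actin, read 756 and 686 in Ezh2cKO, against 989 and 853 in WT (log2 difference -0.34, SE 0.20). With a common median these groups overlapped too. The other 3 Rab27a probe sets had log2 differences between -0.41 and 0.02, each with overlapping groups. Mc1r, the receptor for melanocyte-stimulating hormone, read 56.0 and 98.0 in Ezh2cKO, against 125 and 111 in WT (log2 difference -0.56, SE 0.50). Both of the Ezh2cKO values were lower, that of replicate 1 by more. Myo5a, the myosin that carries melanosomes along actin, read 1419 and 1139 in Ezh2cKO, against 1084 and 1136 in WT (log2 difference 0.19, SE 0.19). Oca2, Trpm1 and Gpnmb lay under the level of the upper 60%, and other probe sets of Trpm1 and Gpnmb had log2 differences of the opposite sign, up to 0.33 and 0.49.

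**Figure D5:**
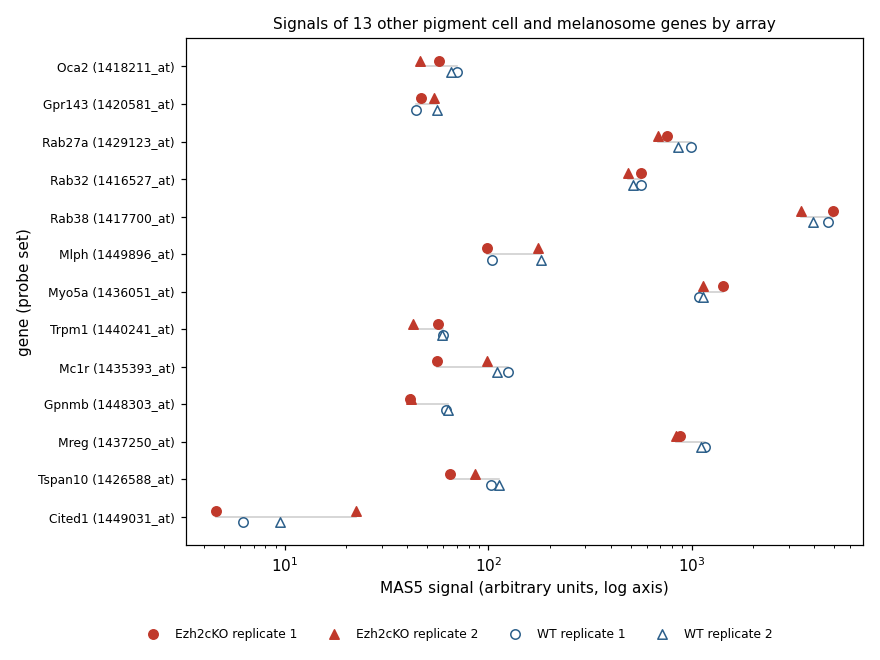
MAS5 signal (arbitrary units, log axis) of the brightest probe set of 13 other pigment cell and melanosome genes on each array, with Ezh2cKO filled and WT open, circles for replicate 1 and triangles for replicate 2, and a grey line over the range. In 7 rows both filled points lie left of both open points, in the Myo5a row they lie right, and in the rest they overlap.

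Of 9 genes for signals that reach melanoblasts from neighbouring cells 8 were on the array, and 0 had groups that did not overlap, where 9.9% of all genes had both Ezh2cKO arrays above both WT arrays and 9.14% below. Kitl, the ligand of Kit, which keratinocytes make, read 3172 and 3374 in Ezh2cKO, against 2898 and 3224 in WT (log2 difference 0.10, SE 0.16). Ece1, the protease that activates endothelins, read 1476 and 1699 in Ezh2cKO, against 1354 and 1666 in WT (log2 difference 0.08). Edn1, encoding endothelin 1, read 268 and 115 in Ezh2cKO, against 210.4 and 276 in WT, higher within number 1 and lower within number 2. Fgf2, a growth factor for melanocytes, read 3.46 and 27.7 in Ezh2cKO, against 26.5 and 25.6 in WT.

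Among 12 regulators of melanoblast specification, 1 had both Ezh2cKO arrays above both WT arrays and 0 had them below, where 9.9% and 9.14% of all genes were so placed, so the count was near that of all genes. The 1 above was Bcl2, an inhibitor of cell death on which melanocytes depend, at 932 and 729 in Ezh2cKO, against 590.3 and 589.5 in WT (log2 difference 0.47, SE 0.22). Erbb3, a neuregulin receptor of the neural crest that is also on the Schwann cell list, read 2427 and 2047 in Ezh2cKO, against 2793 and 2360 in WT. Snai2, a zinc finger factor of migrating neural crest cells, read 5329 and 3484 in Ezh2cKO, against 5340 and 4380 in WT. Tfap2b read 3645 and 2399 in Ezh2cKO, against 2686 and 2633 in WT. The last 3 genes had overlapping groups, and 0 of the 12 passed limma's adjusted threshold.

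The 13 genes for the biogenesis of lysosome-related organelles, the trafficking machinery that melanosomes share with lysosomes and platelet granules, had a median log2 difference of 0.03. Only Hps3 had non-overlapping groups (1 of 13, where 9.9% of all genes were so placed above and 9.14% below). It read 499 and 461 in Ezh2cKO, against 313 and 444 in WT (log2 difference 0.35, SE 0.27). Vps33a read 628 and 470 in Ezh2cKO, against 514 and 378 in WT, Hps5 164 and 264 against 240 and 273, and the dim Hps6 19.7 and 7.48 against 77.5 and 11.8. None of the 13 passed limma's adjusted threshold.

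For the shape of the Dct values over the 4 arrays, the 5 nearest of 12696 other genes in the upper 60% were Thumpd1, H2aj, Minar2, Exoc7 and Mrpl33, at distances of 0.10 to 0.22 in log2 units after each gene's mean was removed. Thumpd1 read 1413 and 1080 in Ezh2cKO, against 2097 and 1021 in WT, high in WT replicate 1 as Dct was. With 4 arrays, 345 genes lay within a distance of 0.5, and the other members were left out of this comparison.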

How the data were processed

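RNA from the sorted basal cells was read on Affymetrix arrays. Per the submitters' processing notes, which give no version, the authors made the deposited intensity values with MAS5. The table holds 1 linear signal for each probe set on each array. All 4 arrays had a mean of 500.0 once 2% of values were trimmed from either end, and no further scaling was applied. Arrays were assigned to genotype and replicate number from their titles. After 64 control probe sets were left out of 45101, 45037 remained. Of these, 34945 had 1 symbol, 932 several and 9160 none listed. Symbols were updated by gene ID through RefSeq's table (34741 matched).

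Values were transformed as log2(signal + 16), and all probe sets were tested with limma 3.58.1 in R 4.3.3 (intensity trend, no block, Benjamini-Hochberg over all, threshold 0.05), dim ones included. The fit was also run on simulated arrays. These had the same spread for all probe sets and no deviation shared by replicate number. That run therefore does not measure power at the noise of these data. A gene's brightest probe set is the one with the highest mean signal over all 4 arrays. Named genes were all member probe sets, Ezh2, up to 4 per other list by absolute moderated t, and 5 genes nearest to Dct in Euclidean distance. Oca2, Trpm1, Gpnmb, Tspan10, Cpa3 and Pecam1 were named after their values were seen. Members and lists were chosen with earlier results of these data known. The number of arrays limits the precision. Alternatives covered pseudocounts, filters, scalings, the replicate number as a block, no trend, averaging the probe sets of each gene, and omission of each array in turn.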

Additional observations from a re-analysis of the deposited data

How the results depend on the processing

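The number of member probe sets past limma's adjusted threshold was 0 under each alternative, and over all probe sets it was 0 except where 1 array was omitted (0 to 47). It was then 2 with Ezh2cKO replicate 2 omitted, 10 with WT replicate 1 omitted and 47 with WT replicate 2 omitted. Unadjusted p under 0.05 was reached by 504 probe sets, by 110 and 86 in the upper 60% and 40% of probe sets, where fewer were tested, and by 660 to 1267 without 1 array. Among members it was reached by 0 to 2 without 1 array and by 0 otherwise.

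The replicate numbers of the 2 genotypes share only a number by the labels. Same-numbered arrays deviated together (correlation 0.61 over all probe sets, the same for both numbers by construction with 2 arrays a group). With the replicate number as a block, 2168 probe sets had an unadjusted p under 0.05 and the adjusted count stayed at 0.

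Member probe sets with both Ezh2cKO arrays above both WT arrays numbered 0 in the upper 40%, after quantile normalization and with a common median, against 1 as deposited. Those below numbered 3 with a common median, Pmel not among them, against 1 as deposited, which was Pmel. Without 1 array, where such counts can only stay or grow because fewer values are compared, they were 2 to 9 above and 6 to 11 below. The alternatives for the pigment list count of 7 were chosen after seeing the data. This count was 4 of 8 genes in the upper 60%, 2 of 5 in the upper 40%, 4 of 13 after quantile normalization and 2 of 13 with a common median. It was 8 to 9 without 1 array, where it likewise could not fall, so that range is no check of it. No probe set of a member was 2-fold apart in all pairs under any alternative run for it.

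Log2 differences of members turned sign as follows, the cause not tested. With a common median, Sox10 1424985_a_at was at -0.0199 and Mlana at -0.0024, and Mlana was at -0.0268 after quantile normalization. With the probe sets of each gene averaged, Tyr was at 0.0042 and Slc45a2 at 0.0831. Without 1 array the ranges were -0.87 to 0.23 for Dct, -0.23 to 0.12 for Tyr 1448821_at, -0.43 to 0.0394 for Tyr 1417717_a_at, -0.0677 to 0.59 for Tyr 1456095_at, -0.65 to 0.0207 for Tyrp1 1415861_at, -0.76 to 0.011 for Tyrp1 1439409_x_at and -0.19 to 0.70 for Mitf 1422025_at. They were -0.54 to 0.30 for Sox10 1451689_a_at, -0.33 to 0.34 for 1424985_a_at and -0.58 to 0.56 for 1425369_a_at, -1.02 to 0.26 for Kit 1452514_a_at and -0.85 to 0.29 for 1415900_a_at. For Mlana the range was -0.39 to 0.49, for Ednrb -0.73 to 0.37 (1437347_at), -0.40 to 0.28 (1423594_a_at) and -0.86 to 0.44 (1426314_at), and for Slc45a2 1437430_at -0.72 to 0.58. Pmel, Tyrp1 1415862_at, Mitf 1455214_at and Slc45a2 1451055_at kept their sign in these fits.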
